A study of Bos taurus with 38 samples.

Results

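ACACA (ENSBTAG00000017567), ELOVL6 (ENSBTAG00000010564) and DGAT2 (ENSBTAG00000001154) are 3 of the 24616 genes counted in the liver of lactating dairy cows, and were taken by identifier. All 3 passed the limit on low counts in both breeds. The 38 libraries were made from the livers of 9 Holsteins and 10 Jerseys. A biopsy was taken from every cow once on a low-concentrate control diet (C) and once on a high-concentrate diet (HC), in a crossover of 2 periods. In period 1, 5 Holstein and 5 Jersey cows ate the HC diet. Residual feed intake (RFI) is the feed a cow eats beyond what its production and body weight predict, so that a high-RFI cow is less feed efficient. Of the Holsteins 4 were high-RFI and 5 low-RFI, and of the Jerseys 5 and 5. The Holsteins were 3 cows in each of parities 1, 2 and 3, and the Jerseys 4, 2 and 4. Parity moves with age, and these cannot be told apart here. The study had chosen high- and low-RFI cows from 1 research herd in blocks of similar lactation stage and parity, and each cow is 1 animal with 2 libraries. The RFI values of the Holstein groups overlapped, since the high-RFI cow 15 had a lower value than the low-RFI cow 1.

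The liver makes and exports lipid, although in ruminants most new fatty acids are made in adipose tissue and the mammary gland. ACACA encodes acetyl-CoA carboxylase alpha, which turns acetyl-CoA into malonyl-CoA and so commits carbon to fatty acid synthesis. ELOVL6 encodes an elongase of the endoplasmic reticulum that lengthens palmitate to stearate, using malonyl-CoA as the donor. DGAT2 encodes a diacylglycerol acyltransferase, which adds the last acyl chain of a triglyceride. The 3 genes thus stand at the start, the middle and the end of the route from acetyl-CoA to stored fat. The other genes of the route, such as FASN, SCD and DGAT1, had no symbol paired with an identifier and are not analysed here.

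The read pairs on genes numbered 17472750 to 24478289 in a library (median 19814536), and CPM below are counts scaled to this total. ACACA rested on 250 to 1509 read pairs per library, ELOVL6 on 428 to 2153 and DGAT2 on 301 to 777. The paired libraries were not copies: comparing the counts of a cow's C and HC libraries gave a chi-square of 12.91 or more per degree of freedom, against 1 for sampling noise. In the Jerseys, 12 genes were on (above 2 CPM) in some cows and off (below 0.5 CPM) in the rest, limits that were set after seeing the data. In the other 8 cows the C and HC libraries matched in 12 of these genes, but those labelled as cow 10 and those labelled as cow 17 in 10 each. The libraries of cows 10 and 17 on the C diet were alike with each other in 12, as were those on the HC diet. The labels were used as given, and Jersey results are also given without these cows where that changes a call or a direction. CYP7A1, the rate-limiting enzyme of bile acid synthesis and a gene of hepatocytes, was between 37.97 and 1042 CPM in the Holsteins and between 74.76 and 561.8 CPM in the Jerseys. The T cell gene CD3D stayed at 8.37 CPM or less in every library. NKG7, a gene of T and NK cells, was higher, at 7.06 to 16.7 CPM in the Holsteins and 5.87 to 12.6 CPM in the Jerseys. In whole tissue, fewer cells of a type and less RNA per cell cannot be told apart.

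ACACA, the entry step, followed parity in the Holsteins. In the 3 cows of parity 1, its level over both diets was 30.4 CPM in cow 15, 18.4 CPM in cow 16 and 23.7 CPM in cow 19. In parity 2 it was 53.2 CPM in cow 7, 56.4 CPM in cow 9 and 44.1 CPM in cow 11. In parity 3 it was 48.3 CPM in cow 1, 72.4 CPM in cow 2 and 45.9 CPM in cow 6. The first-parity cows lay below all older cows, and the cows of parities 2 and 3 overlapped. The separation held for single libraries as well: the 6 libraries of parity 1 were between 12.7 and 31.8 CPM, and the 12 libraries of older cows at 39.7 CPM or more.

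**Figure D1:**
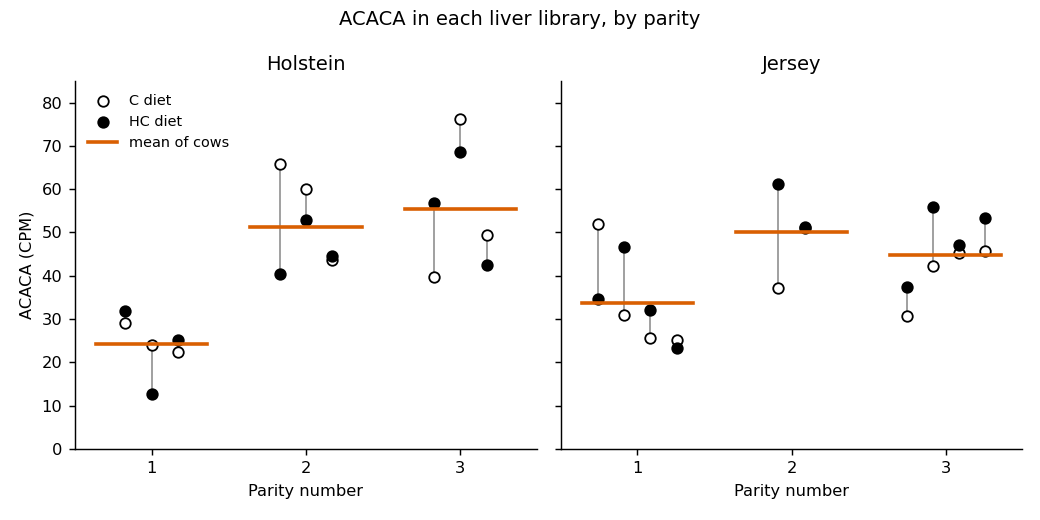
ACACA in CPM, counts scaled to the library total (y axis), in each library by parity number (x axis), with Holsteins left and Jerseys right. Open points are the C diet, filled points the HC diet, a grey line joins the libraries of a cow, and orange lines are means of cows. The Holstein libraries of parity 1 end at 31.8 CPM and those of parities 2 and 3 start at 39.7 CPM, while the Jersey parities overlap.

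Mean levels of ACACA in the Holsteins were 24.2 ± 6.04 CPM in parity 1, 51.2 ± 6.39 in parity 2 and 55.5 ± 14.7 in parity 3 (SD, n = 3 cows each). In edgeR the log2 difference of parity 3 from parity 1 was 1.17 (SE 0.13, 95% interval 0.89 to 1.44), a 2.24-fold higher level, with an adjusted p of 0.00068. It was the gene with the smallest p of the 12025 tested. In this comparison 46 genes were called, 0.383% of those tested. A replicate block that treats the cow as random (limma-voom) left 7 calls, 0.0582% of genes, and gave ACACA an adjusted p of 0.00256. With the libraries of each cow summed, ACACA was the 1 gene that edgeR called (0.00832% of genes, adjusted p = 0.0236). Leaving out each cow in turn kept its log2 fold change between 1.07 and 1.27 and its adjusted p at 0.00962 or less. Over cows, 3 against 3 cannot give an exact permutation p below 0.1, which was the value found. Cows of parities 2 and 3 together stood 1.13 above those of parity 1 on the log2 scale (exact permutation test, p = 0.0119, the smallest that 6 against 3 cows allow). That grouping, which the study used to form its blocks, was chosen for this test after seeing the data. The p restates the separation of first-parity from older cows already seen, and is no further evidence for it.

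A gene known from muscle had the same direction as ACACA in this comparison. MYOM1 and RYR1 are named here because their cow means were among the most like those of ACACA in these same cows. A direction shared with ACACA is therefore partly built in and no independent observation. MYOM1, which encodes a protein of the muscle sarcomere, was 8.38 to 34.9 CPM in the 6 Holstein libraries of parity 1 (median 26.2), 37.9 to 64.5 CPM in those of parity 2 (median 48.8) and 30.7 to 145 CPM in those of parity 3 (median 70.7). Parity 1 overlapped with parity 3 but not with parity 2. Its log2 fold change of parity 3 against 1 was 1.65 (SE 0.28, edgeR adjusted p = 0.0201). RYR1, the calcium release channel of skeletal muscle, was 2.84 to 8.26 CPM in parity 1 and 5.41 to 14.0 CPM in parity 3, a difference of 0.58 on the log2 scale (SE 0.20, edgeR adjusted p = 0.279). The list of skeletal muscle markers, such as ACTA1 and CKM, could not be paired with identifiers, and the part of muscle RNA in the ACACA levels was not tested.

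In the Jerseys the parities overlapped. The level of ACACA was 24.2 to 43.3 CPM in the 4 cows of parity 1 (33.8 ± 8.77, SD), 49.1 and 51.2 CPM in the 2 cows of parity 2, and 34 to 49.5 CPM in the 4 cows of parity 3 (44.7 ± 7.28, SD). The log2 fold change of parity 3 against 1 was 0.40 (SE 0.14, edgeR adjusted p = 0.21), where 0.227% of genes were called. Without cow 13, the highest of the first-parity Jerseys, it was 0.58 with an adjusted p of 0.0419 in edgeR. Of the 10 fits that left out a cow, only this 1 passed the threshold. Without cow 18, the lowest of the first-parity Jerseys, the log2 fold change was 0.28 (edgeR adjusted p = 0.469). Older Jerseys stood 0.48 above first-parity Jerseys on the log2 scale (exact permutation test, p = 0.0143), and 0.42 without cows 10 and 17 (exact permutation test, p = 0.0536). This grouping too was chosen after seeing the data. Whether the parity difference itself differs between the breeds was not tested.

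The other members did not pass the edgeR test for parity. ELOVL6 in the Holsteins had means of 36.9 ± 10.1 CPM in parity 1, 60.9 ± 20.7 in parity 2 and 56.3 ± 30.6 in parity 3 (SD, n = 3 cows each). The highest first-parity cow, at 45.2 CPM, lay above the lowest third-parity cow, at 30.1 CPM. Its log2 fold change was 0.46 (SE 0.22, edgeR adjusted p = 0.465) in the Holsteins and 0.27 (SE 0.19, edgeR adjusted p = 0.579) in the Jerseys. Without cow 2 the Holstein value was 0.19, and the Jersey value was 0.08 without cow 8 and 0.42 without cow 3. For DGAT2 in the Holsteins the change was -0.16 on the log2 scale (SE 0.14, edgeR adjusted p = 0.728). In the Jerseys it was 27.4 ± 2.49 CPM in parity 1 and 20.6 ± 5.39 CPM in parity 3 (SD, n = 4 cows each). This gave -0.42 on the log2 scale (SE 0.14, edgeR adjusted p = 0.174), the opposite sign of ACACA in the same cows. Over cows, older minus first-parity Jerseys, a grouping chosen after seeing the data, was -0.38 (exact permutation test, p = 0.0333). Without cows 10 and 17 it was -0.34 (exact permutation test, p = 0.125). Cow 8, at 28.6 CPM, was the parity 3 Jersey inside the parity 1 range. Without it the log2 fold change of parity 3 against 1 was -0.60 (edgeR adjusted p = 0.0386). Of the 10 fits that left out a cow, only this 1 passed the threshold, and without cow 4 the value was -0.34 (edgeR adjusted p = 0.408).

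The diet was compared within cows, since each ate both. ELOVL6, the elongase, was higher on HC in 8 of the 9 Holsteins. On C it ranged from 21.6 to 90.4 CPM with a median of 35.2, and on HC from 29.7 to 114 CPM with a median of 55.7. The levels on the 2 diets overlapped. Cow 1 went from 31.5 to 66.1 CPM, cow 11 from 35.2 to 68.0 CPM and cow 2 from 66.1 to 114 CPM. Cow 7, which had the highest level on C, was the 1 Holstein that was lower on HC, with 90.4 CPM on C and 78.8 CPM on HC. HC minus C was 0.59 on the log2 scale (SE 0.18, 95% interval 0.21 to 0.97), a 1.5-fold higher level. Its adjusted p was 0.141 in edgeR without a cow term, where 0.782% of genes were called. Under a replicate block with a fixed term per cow the log2 fold change was also 0.59 and the adjusted p 0.00659, and 2.87% of genes were called. DESeq2 without the block gave an adjusted p of 0.0452 and called 2.85% of genes. A flip of the signs of the within-cow differences gave p = 0.00781 (exact permutation test over 9 cows, 0.00391 being the smallest possible).

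In the Jerseys, ELOVL6 was higher on HC in 8 of 10 cows. It ranged from 26.0 to 45.3 CPM on C (median 39.5) and from 21.8 to 86.2 CPM on HC (median 42.1), so that the cows were more spread out on HC. Cow 12 went from 45.3 to 86.2 CPM and cow 8 from 39.4 to 82.4 CPM, while cow 17 went from 39.6 to 21.8 CPM and cow 14 from 35.9 to 34.9 CPM. In edgeR the difference was 0.39 on the log2 scale (SE 0.17) and the adjusted p 0.379, where 0.37% of genes were called, and of 0.337 with the fixed replicate block. The mean within-cow difference was 0.34 on the log2 scale (exact permutation test, p = 0.0898). Without cows 10 and 17 it was 0.48 (exact permutation test, p = 0.0156), with 7 of 8 cows higher on HC. The difference between the breeds in this effect was 0.25 on the log2 scale (exact permutation test, p = 0.257), so that it was not separated from 0.

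**Figure D2:**
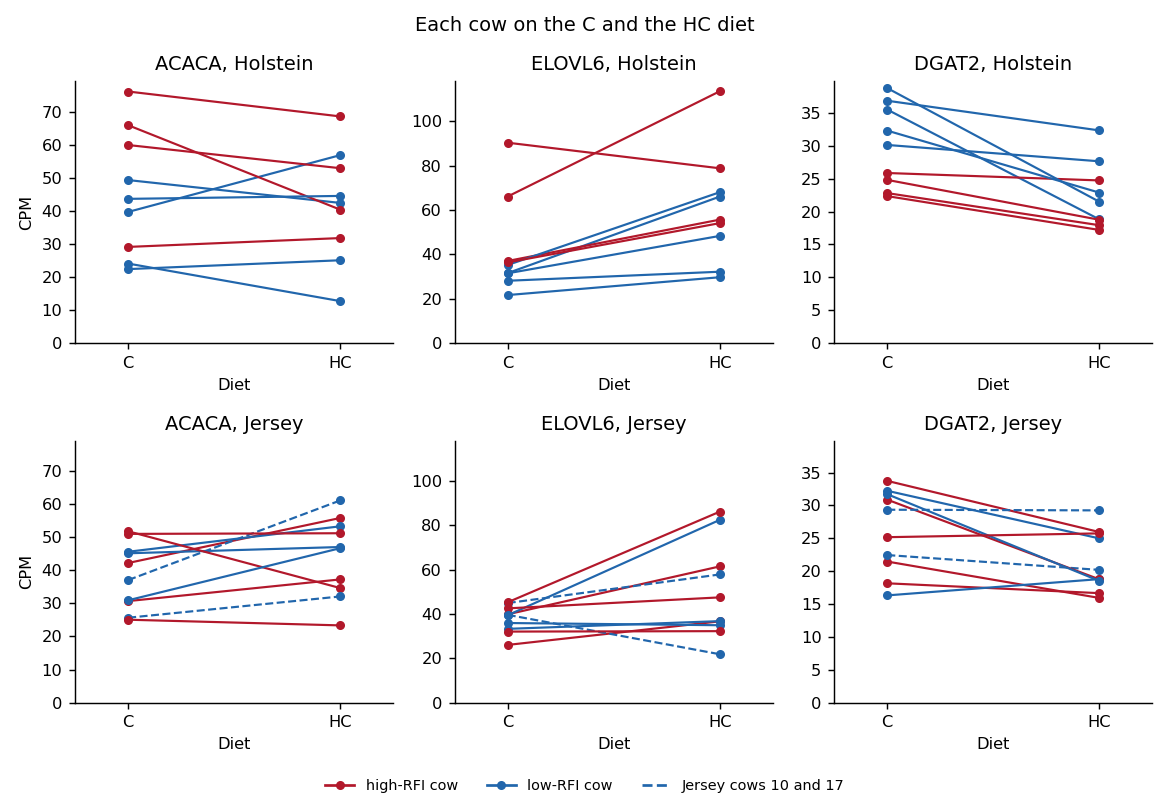
Level of each gene (CPM, y axis) on the C and HC diets (x axis), 1 line per cow, with Holsteins above and Jerseys below. Red lines are high-RFI and blue lines low-RFI cows, and dashed lines are Jersey cows 10 and 17. ELOVL6 lines go up in 8 of 9 Holsteins and 8 of 10 Jerseys, and DGAT2 lines go down in 9 of 9 Holsteins and 8 of 10 Jerseys.

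DGAT2, the last step, had the opposite sign. In the Holsteins it ranged from 22.4 to 38.8 CPM on C (median 30.1) and from 17.2 to 32.4 CPM on HC (median 21.5). In CPM it was lower on HC in 9 of 9 cows, by 7.52 CPM on average (exact permutation test, p = 0.00391, the smallest possible). With TMM factors it was lower in 7 of 9 cows, since cows 7 and 16 then had log2 differences of 0.05 and 0.02, and the mean difference was -0.39 (exact permutation test, p = 0.0234). The low-RFI cows 1 and 11 had the largest differences, from 35.5 to 18.8 CPM and from 38.8 to 21.5 CPM. In edgeR the difference was -0.36 (SE 0.11, 95% interval -0.60 to -0.12) and the adjusted p 0.151, and 0.0628 with the fixed replicate block. In the Jerseys DGAT2 ranged from 16.3 to 33.7 CPM on C (median 27.3) and from 15.9 to 29.3 CPM on HC (median 19.5), and was lower on HC in 8 of 10 cows in CPM and in 7 of 10 with TMM factors. Its log2 fold change there was -0.23 (SE 0.12, edgeR adjusted p = 0.483).

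ACACA had no common direction with diet in the Holsteins, with 4 of 9 cows higher on HC. On the log2 scale the widest within-cow differences were in cow 16, from 24.04 CPM on C to 12.7 CPM on HC, and in cow 7, from 65.9 to 40.4 CPM. Cow 1 went the other way, from 39.7 to 56.9 CPM. HC minus C was -0.10 on the log2 scale (SE 0.10, 95% interval -0.32 to 0.12, edgeR adjusted p = 0.772). In the Jerseys 8 of 10 cows were higher on HC, and the log2 fold change was 0.24 (SE 0.13, 95% interval -0.03 to 0.50, edgeR adjusted p = 0.482). The mean within-cow difference in the Jerseys was 0.24 on the log2 scale (exact permutation test, p = 0.043), and 0.17 without cows 10 and 17 (exact permutation test, p = 0.156). Cow 10 had the largest of these differences, from 37.1 to 61.2 CPM.

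The RFI groups were compared to ask whether less efficient cows differ in these genes. All 3 genes are on the list that the study chose for a difference by RFI in these same Holsteins, so the Holstein values are a description and no independent evidence. ACACA was 72.4, 53.2, 56.4 and 30.4 CPM in cows 2, 7, 9 and 15 of the high-RFI group. In cows 1, 6, 11, 16 and 19, which were low-RFI, it was 48.3, 45.9, 44.1, 18.4 and 23.7 CPM. The groups overlapped through cow 15, a first-parity cow. With parity in the model the log2 fold change, high minus low RFI, was 0.48 (SE 0.11), and its edgeR adjusted p 0.162.

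ELOVL6 was 89.9, 84.6, 46.3 and 45.2 CPM in cows 2, 7, 9 and 15 (high-RFI). It was 48.8, 30.1, 51.6, 25.6 and 39.9 CPM in cows 1, 6, 11, 16 and 19 (low-RFI). Cows 2 and 7 stood above all low-RFI cows, and cows 9 and 15 lay within their range. High minus low RFI was 0.69 on the log2 scale (SE 0.19, edgeR adjusted p = 0.283), and 0.43 without cow 2 (edgeR adjusted p = 0.958).

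DGAT2 was lower in high-RFI Holsteins, with 19.8, 25.3, 21.8 and 20.4 CPM in cows 2, 7, 9 and 15. It was 27.2, 28.9, 30.1, 34.6 and 27.6 CPM in the low-RFI cows 1, 6, 11, 16 and 19, and the groups did not overlap. High minus low RFI was -0.49 (SE 0.12, edgeR adjusted p = 0.236). Genes called for RFI in the Holsteins were 0.0665% of those tested in edgeR, and 0.562% in DESeq2, where ACACA (adjusted p = 0.011) and DGAT2 (adjusted p = 0.0292) were among them and ELOVL6 (adjusted p = 0.0536) was not. These DESeq2 fits had no term for the cow. Under the random replicate block (limma-voom) the adjusted p was 0.421 for ACACA, 0.566 for ELOVL6 and 0.51 for DGAT2. With the libraries of each cow summed, the edgeR adjusted p-values were 0.711, 0.987 and 0.883 in the same order. Exact permutation tests over cows, without parity, gave unadjusted p-values of 0.167, 0.0556 and 0.0238. Within the 4 complete selection blocks, the high-RFI cow was higher in ACACA in 4 and in ELOVL6 in 3, and lower in DGAT2 in 4.

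**Figure D3:**
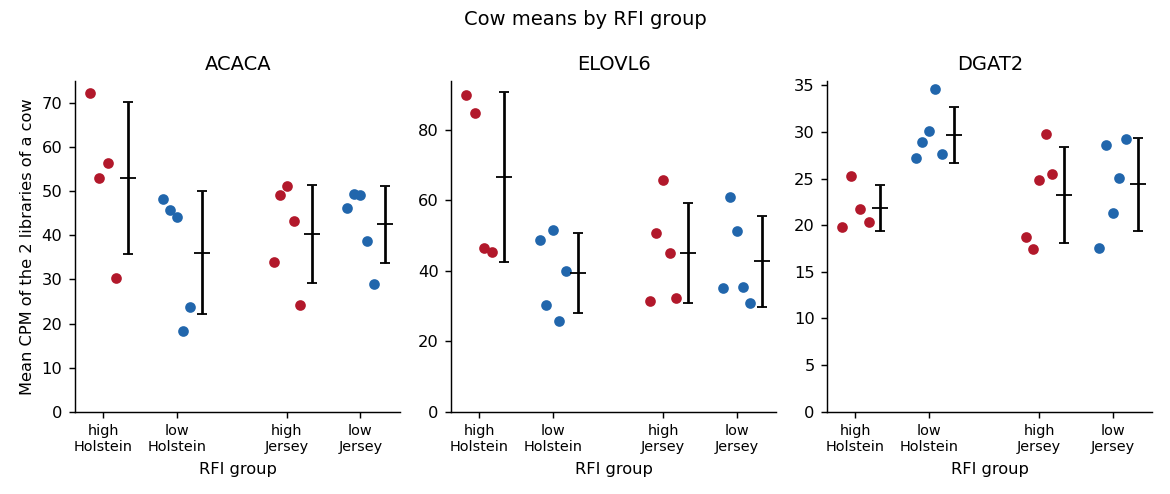
Mean level over both diets of each cow (CPM, y axis) by RFI group and breed (x axis), with the mean and SD of each group as black bars beside the points (n = 4 high-RFI Holsteins, 5 cows in each other group). For DGAT2 the high-RFI Holsteins end at 25.3 CPM and the low-RFI Holsteins start at 27.2 CPM, while the Jersey groups overlap for all 3 genes.

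The Jerseys, which did not enter that choice, gave small differences. ACACA was 40.3 ± 11.2 CPM in the high-RFI and 42.5 ± 8.73 CPM in the low-RFI Jerseys, ELOVL6 45.0 ± 14.3 and 42.7 ± 12.9 CPM, and DGAT2 23.2 ± 5.14 and 24.4 ± 4.97 CPM (SD, n = 5 cows each). The log2 fold changes were -0.05 for ACACA (95% interval -0.32 to 0.21), 0.07 for ELOVL6 (-0.28 to 0.41) and -0.08 for DGAT2 (-0.33 to 0.18), with edgeR adjusted p-values of 0.993 and 0.994. In this comparison 0.0336% of genes were called. These intervals do not show that the groups are alike, and they count the 2 libraries of a cow as independent. In 5 Jersey blocks the high-RFI cow was higher in ACACA in 2, in ELOVL6 in 2 and in DGAT2 in 4. The difference between the breeds in the effect of RFI was 0.54 for ACACA (SE 0.21), 0.60 for ELOVL6 (SE 0.26) and -0.38 for DGAT2 (SE 0.18), on the log2 scale, and ELOVL6 had 0.35 without Holstein cow 2. The edgeR adjusted p-values were 0.437, 0.542 and 0.613, and 0.0661% of genes were called, so that none of the 3 was shown to differ between the breeds.

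Against the RFI value as a number, DGAT2 in the Holsteins had r = -0.85 and rho = -0.83 over 9 cows (exact permutation test, p = 0.00473 and 0.00827, adjusted over 6 relations 0.0284 and 0.0415), and r was -0.77 without the 2 cows farthest from the median RFI. ACACA had r = 0.67 and rho = 0.80 (exact permutation test, p = 0.0487 and 0.0138, adjusted 0.145 and 0.0415), and r was 0.65 without those 2 cows. ELOVL6 had r = 0.62 and rho = 0.67 (exact permutation test, p = 0.0727 and 0.0589, adjusted 0.145 and 0.118), and r was 0.59 without them. The genes were chosen by RFI in these same cows, so these Holstein values are a description and no independent evidence. The adjustment over 6 relations does not account for that choice. Parity did not enter these relations, and its part in the r of ACACA was not tested. In the Jerseys the r of the genes lay between -0.32 and -0.28, with permutation p-values of 0.371 or more.

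Neither period nor breed nor the combination of RFI and diet gave a call for any of the 3 genes. For period 2 against period 1, the log2 fold changes lay between -0.15 (DGAT2) and 0.23 (ELOVL6) in the Holsteins and between -0.21 (DGAT2) and 0.07 (ACACA) in the Jerseys. Over all genes edgeR called 0 for period in the Holsteins, with 190 genes at an unadjusted p under 0.05 and 0 by DESeq2, and 0 in the Jerseys, with 963 such genes and 14 by DESeq2. Those 14 were among the 1057 Jersey genes to which DESeq2 gave an adjusted p, which left out ACACA, ELOVL6 and DGAT2. For the interaction of RFI and diet, the log2 values were -0.23 (SE 0.21) for ACACA, -0.36 (SE 0.36) for ELOVL6 and 0.13 (SE 0.24) for DGAT2 in the Holsteins. They were -0.39 (SE 0.24), 0.26 (SE 0.34) and -0.10 (SE 0.25) in the Jerseys. EdgeR called 0 genes for it in both breeds. An unadjusted p under 0.05 was found for 206 Holstein genes and 443 Jersey genes, and DESeq2 called 0 and 2. Between Holsteins and Jerseys the log2 fold changes were -0.06 for ACACA (SE 0.11, edgeR adjusted p = 0.808), 0.12 for ELOVL6 (SE 0.14, edgeR adjusted p = 0.63) and 0.11 for DGAT2 (SE 0.09, edgeR adjusted p = 0.529). Breed was the comparison with the most calls, 9.68% of genes.

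**Figure D4:**
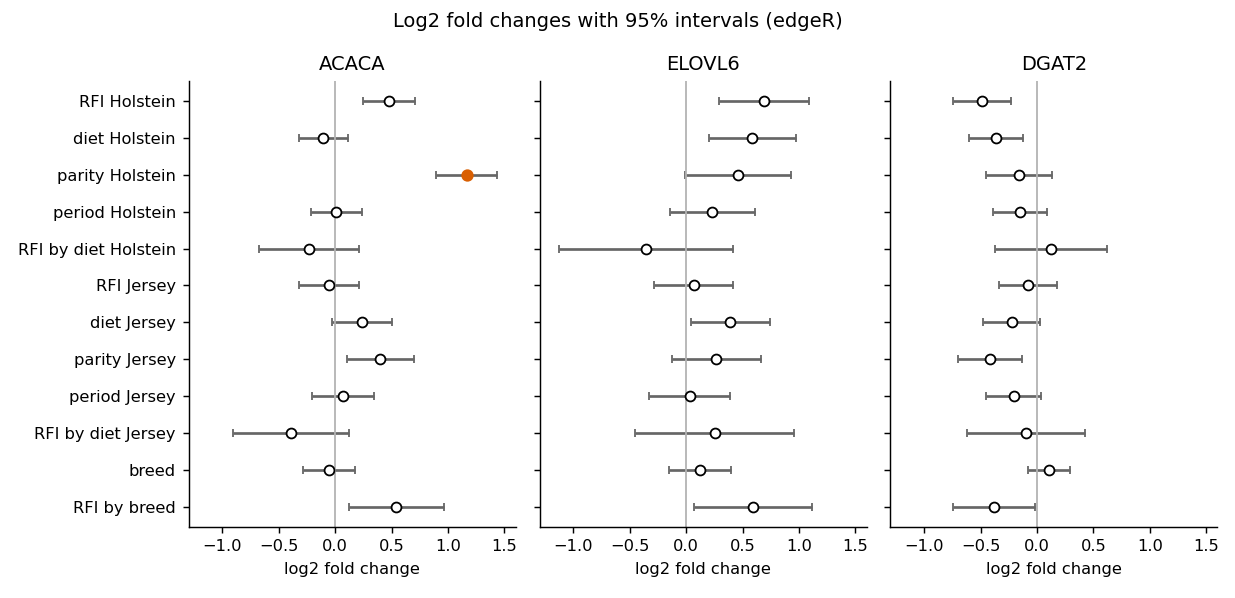
Log2 fold change (x axis) of each gene in 12 comparisons (y axis) with 95% intervals from edgeR. The fits count the 2 libraries of a cow as independent. Filled orange points have an adjusted p under 0.05 over all genes tested, and the only such point is ACACA for parity in the Holsteins, at 1.17. RFI is high minus low, diet HC minus C, parity 3 minus 1, period 2 minus 1, and breed Holstein minus Jersey.

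The levels of ACACA and ELOVL6 went together from cow to cow. Over the 10 Jerseys the cow means had r = 0.80 and rho = 0.92 (permutation test, p = 0.0056 and 0.0006, adjusted over 12 relations 0.026 and 0.0072), and r was 0.82 without the 2 cows farthest from the median of ACACA. Without cows 10 and 17, r was 0.72 and rho 0.93 (exact permutation test, p = 0.0274 and 0.00223, adjusted 0.11 and 0.0268). Over the 9 Holsteins r was 0.70 and rho 0.73 (exact permutation test, p = 0.0369 and 0.0311, adjusted 0.111 and 0.0934), and r was 0.54 without the 2 cows farthest from the median, where cow 2 was highest in both genes and cow 16 lowest in both. With each of the 19 cows centred on its breed and parity, r was 0.70. DGAT2 had r of -0.62 with ACACA (exact permutation test, p = 0.0777, adjusted 0.155) and of -0.66 with ELOVL6 (exact permutation test, p = 0.0527, adjusted 0.127) in the Holsteins. In the Jerseys these were -0.42 and -0.05, with permutation p-values of 0.23 and 0.893. Both genes of a pair were read from the same libraries and share their scaling and the cow's diet order. The genes were also chosen by the study for a difference by RFI in these Holsteins, which bears on the Holstein r. Over 19 cows centred on breed, r was 0.73 for ACACA and ELOVL6, -0.52 for ACACA and DGAT2 and -0.39 for ELOVL6 and DGAT2. With the cows centred on breed and RFI group, these were 0.66, -0.39 and -0.11. The part of this choice in the Holstein relations was not tested.

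The within-cow differences between diets went together in the Holsteins in another way. The larger the difference in ELOVL6, the lower was that in DGAT2, with r = -0.82 and rho = -0.78 (exact permutation test, p = 0.00597 and 0.0172, adjusted 0.026 and 0.0689). At one end, cow 1 had log2 differences of 1.02 in ELOVL6 and -0.96 in DGAT2, and cow 11 of 0.97 and -0.83. At the other, cow 7 had -0.08 and 0.05, and cow 6 had 0.29 and -0.03. Cows 1 and 11 ate the C diet first, and cows 7 and 6 the HC diet first. Cow 16, which also ate the C diet first, had 0.66 and 0.02. The part of diet order in these relations was not tested. Without the 2 cows farthest from the median r was -0.70. The differences of ACACA and DGAT2 had r = -0.83 and rho = -0.78 (exact permutation test, p = 0.00651 and 0.0172, adjusted 0.026 and 0.0689), and r was -0.66 without 2 cows. In CPM of the gene total, without TMM factors, that r was -0.77 with an adjusted p of 0.0709 (exact permutation test), while r for ELOVL6 and DGAT2 was -0.89 with an adjusted p of 0.0179. In the Jerseys the same relations had r of -0.28 for ELOVL6 and DGAT2 and -0.10 for ACACA and DGAT2, with permutation p-values of 0.438 and 0.781. Whether the breeds differ in these relations was not tested.

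**Figure D5:**
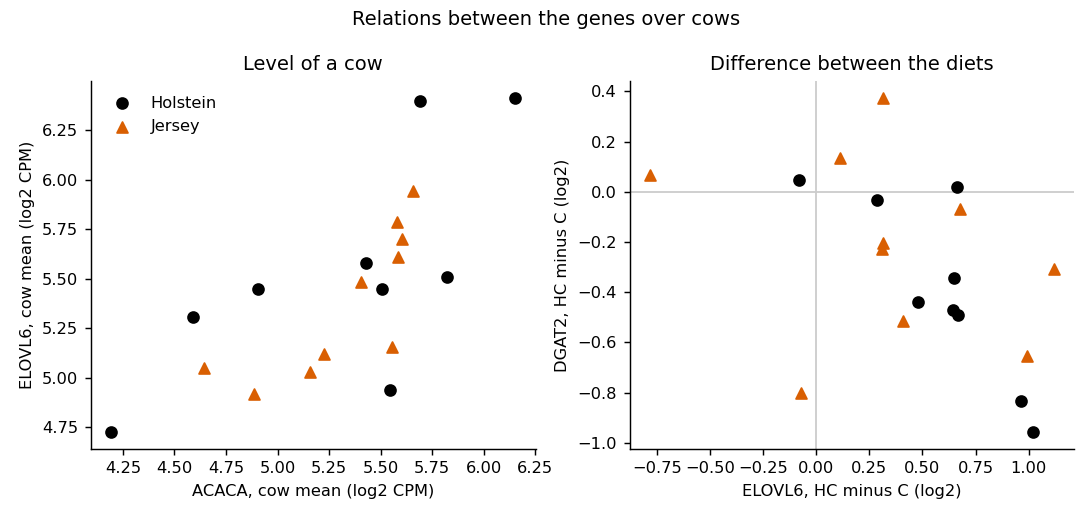
Left, cow means of ACACA (x axis) and ELOVL6 (y axis) in log2 CPM. Right, the HC minus C difference of ELOVL6 (x axis) and DGAT2 (y axis) on the log2 scale, with 1 point per cow (black circles Holstein, orange triangles Jersey). The left panel has r = 0.70 in Holsteins and 0.80 in Jerseys, and the right panel -0.82 and -0.28.

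Among the 73 genes with a symbol, all of them from the lists the study chose by RFI, likeness was measured as Pearson's r of cow means over 19 cows centred within breed. The genes most like ACACA were MYOM1 (r = 0.78), ELOVL6 (0.73), RYR1 (0.67), CCDC64 (0.64) and LYZ (0.59). Those most like ELOVL6 were ARHGEF37 (0.73), ACACA (0.73), MBOAT2 (0.72), RYR1 (0.70) and CCDC64 (0.68). Those most like DGAT2 were CEACAM19 (0.70), SLC6A11 (0.69), AIM1L (0.65), SLC25A34 (0.65) and SLC20A1 (0.65). Among the 11826 other genes kept in both breeds, ELOVL6 had the 52nd highest r with ACACA, and ACACA the 31st highest with ELOVL6. With the cows centred on breed and RFI group, r was 0.66 and these places were 150 and 70. In the RefSeq annotation of ARS-UCD2.0, which is not the build of the counts, ACACA overlaps 3 other annotated genes. Since the strand setting of the counting is not known, read pairs of such genes may not have been kept apart from those of ACACA.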

How the data were processed

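The deposited files hold, for each of the 38 libraries, the raw counts of read pairs per Ensembl gene that the authors made with STAR 2.3.0 on UMD3.1 and HTSeq. The kit was stranded, but the strand setting of the counting is not given in the sources used here. Rows naming no gene were left out of the totals, and 74.88% to 79.87% of a library's read pairs were on genes. CPM are counts scaled to that total, and log2 CPM used TMM factors with a prior count of 2.

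Genes were tested where 1 CPM was reached in 8 or more Holstein or 10 or more Jersey libraries. EdgeR 4.0.16 (R 4.3.3, quasi-likelihood F-test, two-sided) was fitted with parity, diet and RFI group, plus period, the interaction or breed where tested. These main fits had no term for the cow, so their SEs and intervals count the 2 libraries of a cow as independent. P-values were Benjamini-Hochberg adjusted over all genes with a threshold of 0.05. Alternatives were DESeq2 1.42.0 and its size factors, no filter, no parity, period added, the libraries of a cow summed, each cow left out, and a replicate block for the cow, random in limma 3.58.1 or fixed in edgeR. The cow numbers of the labels pair the libraries, and limma estimated a correlation within cows of 0.192 for Holsteins and 0.078 for Jerseys.

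Exact permutation tests over cows numbered 36. Their p-values are not adjusted, although this had been planned. Those of older against first parity and of diet by breed were chosen after seeing the data. Periods and RFI values came from the study's table of cows through the herd numbers. That table names the RFI groups the other way round (Low for the cows with the higher values). The groups here follow the efficiency label, low efficiency being high RFI, and every RFI direction depends on this reading.

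The 3 genes, lists and tests were chosen with earlier results of these data known. Genes named are the 3 genes, genes of lipid lists, and for each gene the 5 with a symbol whose cow means were most alike. Only 77 identifiers had a symbol. Of 219 genes in 16 pathway and cell type lists 6 were paired, at most 20% of a list, so all lists are void. In simulated independent libraries for RFI in the Holsteins, edgeR called 95% of 200 genes changed by 1 on the log2 scale among 12025, and 7 others.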

Additional observations from a re-analysis of the deposited data

Results flagged for a closer look

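The effect of diet on ACACA differed between the breeds by a test of the difference itself, which was chosen after seeing the data. The mean within-cow difference, HC minus C, was -0.12 on the log2 scale in the 9 Holsteins and 0.24 in the 10 Jerseys, a difference of -0.3626 (exact permutation test over cows, p = 0.0348, not adjusted for the 36 tests over cows). HC was higher in 4 of 9 Holsteins and in 8 of 10 Jerseys. In CPM the difference had p = 0.086 (exact permutation test), and without Jersey cows 10 and 17 it was -0.29 on the log2 scale (exact permutation test, p = 0.10). None of the 30 groups examined held a cow or library far from its others by Dixon's criterion.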

How the results depend on the processing

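Apart from the leave-one-out fits, 244 of 252 alternative values of the 36 log2 fold changes kept their direction and side of the threshold, as did 44 of 57 values of the tests over cows and 16 of 21 correlations. DESeq2 brought ACACA (0.48) and DGAT2 (-0.487) for RFI and ELOVL6 (0.588) for diet past the threshold in the Holsteins, and the replicate block with the cow fixed did so for ELOVL6 and diet (0.588). The replicate block changed no other call of the 3 genes. The sign turned for ELOVL6 in the Jerseys for period with the replicate block (-0.001), and without cows 10 and 17 for RFI (-0.053) and RFI by diet (-0.028). It also turned for ACACA and breed without the parity term (0.052). All of these reversed values were far from the threshold.

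Over cows in CPM, ACACA lost its call for diet in the Jerseys (5.741) and for diet by breed (-9.627), DGAT2 gained one for diet in the Jerseys (-4.671), and ACACA for breed (2.201) and ELOVL6 for period in the Jerseys (3.261) changed sign. Without cows 10 and 17, calls were lost for ACACA in older Jerseys (0.4164), Jersey diet (0.1709) and diet by breed (-0.2902), and for DGAT2 in older Jerseys (-0.3432). Calls were gained for ELOVL6 and Jersey diet (0.4831) and DGAT2 and Jersey period (-0.3112), and signs turned for ELOVL6 and Jersey period (0.1296) and DGAT2 and Jersey RFI (0.006786). The r of ACACA and ELOVL6 in the Jerseys was 0.7238 without them and past the threshold no more. The r of ELOVL6 and DGAT2 in Jersey cow means turned to 0.222 without them and to 0.066 without TMM factors, that of the differences of ACACA and ELOVL6 in the Jerseys turned to 0.0158, and that of ACACA and DGAT2 in the Holsteins lost its call without TMM factors (-0.7673). The causes were not tested.

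With each cow left out, log2 fold changes for parity in the Jerseys ran from 0.276 to 0.584 (ACACA) and from -0.596 to -0.339 (DGAT2). Those that turned sign ran from -0.081 to 0.097 (ACACA, Holstein period), -0.004 to 0.258 (DGAT2, Holstein RFI by diet), -0.195 to 0.046 (ACACA, Jersey RFI), -0.027 to 0.232 (ELOVL6, Jersey RFI), -0.14 to 0.059 (DGAT2, Jersey RFI), -0.021 to 0.128 (ACACA, Jersey period), -0.112 to 0.161 (ELOVL6, Jersey period), -0.231 to 0.018 (DGAT2, Jersey RFI by diet), -0.154 to 0.022 (ACACA, breed) and -0.018 to 0.199 (ELOVL6, breed).

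Log2 fold changes of ELOVL6 ran from 0.425 to 0.822 (Holstein RFI), 0.192 to 0.687 (Holstein parity), 0.079 to 0.42 (Jersey parity) and 0.354 to 0.756 (RFI by breed). The interaction of RFI and diet moved over 1.5 times for ACACA in the Holsteins without cow 1, 7 or 16 (-0.376 to -0.118 over all cows left out) and in the Jerseys without cow 13 (-0.507 to -0.241). For ELOVL6 it did so without Holstein cow 7 (-0.469 to -0.149) and without Jersey cow 8, 12 or 17 (0.031 to 0.556). The Holstein period value of ELOVL6 did so without cow 7 (0.15 to 0.277).

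The counts of genes called, behind the shares given, depended on the setting. DESeq2 moved them from 8 to 61 (RFI), 94 to 343 (diet) and 46 to 199 (parity) in the Holsteins, and from 4 to 21, 44 to 196 and 27 to 269 in the Jerseys. With the fixed replicate block, diet gave 345 and 71. With summed libraries parity gave 1 and 0, RFI 0 and 0, and breed 409 in place of 1172. Leaving out each cow gave 15 (without cow 1) to 135 (without cow 7) for diet, 7 (without cow 16) to 87 (without cow 15) for parity and 4 (without cow 7 or 11) to 16 (without cow 1) for RFI in the Holsteins. In the Jerseys it gave 3 (without cow 4 or 17) to 51 (without cow 13) for diet, 3 (without cow 3 or 18) to 98 (without cow 8) for parity and 1 (without cow 4, 10, 12, 13 or 17) to 6 (without cow 5) for RFI. Without cows 10 and 17, Jersey diet gave 7 calls, and 23 with the block, a fit chosen after seeing the data. The number of cows (4 or 5 in an RFI group, 2 to 4 in a parity) and the read pairs per gene both limit the precision.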
